A study of Mus musculus with 12 samples.

Results

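Chromosomes 3 and 9 each carried a short gained stretch in the same tumour, a renal cell carcinoma of a Mutyh knockout mouse, and distal chromosome 3 read higher than proximal chromosome 3 in 2 lymphomas, in 1 of which it passed the threshold used for a gain. The stretch on chromosome 3 held 361 array probes between chr3:94807980 and chr3:98785519, and that on chromosome 9 held 260 probes between chr9:12406715 and chr9:16293582, in mouse build mm9. They are compared here with the rest of their chromosomes, 9463 probes on chromosome 3 and 8736 on chromosome 9. Together these 18199 probes are part of 170305 on the array. The windows were chosen by their measured log2 ratios in that carcinoma, and distal chromosome 3 by those of the lymphomas, so these levels are descriptions and carry no test.

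The series holds 12 tumours of C57BL/6 mice, 1 array each. Mutyh, deleted in the knockouts, encodes a DNA glycosylase that removes adenine paired with oxidised guanine. Treated mice received ferric nitrilotriacetate (Fe-NTA), an iron chelate that damages the proximal tubules of the kidney, intraperitoneally on 5 days of every week over 12 weeks. Iron was given at 3 mg per kg during week 1 and at 5 mg per kg during the other 11. Treated groups started with 20 males, and mice were killed at about 120 weeks. The carcinomas were 3 from treated knockouts (KO1080, KO1097, KO1134) and 1 from a treated wild type (WT1179). The lymphomas were 2 from treated knockouts (KO1077, KO1111), 1 from an untreated knockout (KO1414), 3 from treated wild types (WT1113, WT1114, WT1121) and 2 from untreated wild types (WT1405, WT1420). No group holds an untreated carcinoma, so carcinomas were compared with treated lymphomas or with treatment in the model.

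Comparative genomic hybridisation compares tumour DNA, here labelled red with Cy5, with reference DNA, here normal C57BL/6 kidney labelled green with Cy3, at probes along the genome. A log2 ratio above 0 means more copies in the tumour sample than in the reference. A gain confined to a few megabases raises the dose of all genes in it at once, and a ratio cannot tell more copies per tumour cell from a larger share of tumour cells in the sample. Mouse distal chromosome 3 holds Notch2, Bcl9 and Nras, and proximal chromosome 9 holds the inhibitors of apoptosis Birc2 and Birc3 beside Yap1, all known from human cancers.

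The noise of an array, from differences between neighbouring probes, lay between 0.115 and 0.171 on the log2 scale, and probes lay a median of 11.7 kb apart on chromosome 3 and 10.6 kb on chromosome 9. Each array was centred on the mode of its autosomal probes. The Mutyh probe at chr4:116490496-116490555 read between -3.22 and -2.40 in the 6 knockouts and between -0.76 and 0.14 in the 6 wild types, without overlap. The other Mutyh probe, at chr4:116480656-116480715, did not separate the genotypes, with -0.57 to 0.28 in knockouts and -0.83 to 0.20 in wild types. The immunoglobulin heavy chain locus, which B cells rearrange, read between -0.50 and -0.041 relative to its chromosome in the 8 lymphomas and between 0.015 and 0.22 in the 4 carcinomas. The T cell receptor alpha locus, also rearranged in lymphocytes, read between -0.31 and -0.055 in the 8 lymphomas and between -0.042 and 0.12 in the 4 carcinomas. Both loci were lower in the lymphomas, so no lymphocyte lineage is named from them. The arrays sit on 3 slides. All 4 carcinomas share slide 1, so slide and tumour type cannot be told apart. KO1077, KO1111, WT1113 and WT1114 share slide 2, and the other lymphomas share slide 3.

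The ends of the steps fall between neighbouring probes, and the flanking probes are shown because they bound where copy number changed. Each is printed as the scanner files list it, whose strand the files do not give, with mm9 coordinates. Intergenic on the array means only that a probe carries no gene name, so it may still lie inside a gene.
Before the first rise on chromosome 3 in KO1134, chr3:89546152-89546211, in Adar: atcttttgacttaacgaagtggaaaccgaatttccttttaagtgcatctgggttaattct
After the first rise on chromosome 3 in KO1134, chr3:89552014-89552072, in Adar: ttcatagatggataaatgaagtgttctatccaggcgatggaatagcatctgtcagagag
Before the main rise on chromosome 3 in KO1134, chr3:94813679-94813738, in Zfp687: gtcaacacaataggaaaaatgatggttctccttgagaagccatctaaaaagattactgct
After the main rise on chromosome 3 in KO1134, chr3:94820951-94821010, in ENSMUST00000128160: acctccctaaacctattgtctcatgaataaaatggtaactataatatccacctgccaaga
Before the drop on chromosome 3 in KO1134, chr3:98785460-98785519, intergenic on the array: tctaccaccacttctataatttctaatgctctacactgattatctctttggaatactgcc
After the drop on chromosome 3 in KO1134, chr3:98840962-98841021, intergenic on the array: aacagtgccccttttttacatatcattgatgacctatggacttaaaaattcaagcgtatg
Before the rise on chromosome 9 in KO1134, chr9:12434900-12434959, intergenic on the array: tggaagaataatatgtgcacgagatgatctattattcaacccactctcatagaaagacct
After the rise on chromosome 9 in KO1134, chr9:12474601-12474660, intergenic on the array: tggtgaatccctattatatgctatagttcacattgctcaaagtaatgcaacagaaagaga
Before the drop on chromosome 9 in KO1134, chr9:16251607-16251666, intergenic on the array: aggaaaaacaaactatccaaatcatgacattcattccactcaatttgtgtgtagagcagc
After the drop on chromosome 9 in KO1134, chr9:16293523-16293582, intergenic on the array: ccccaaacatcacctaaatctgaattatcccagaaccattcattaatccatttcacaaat
Before the rise on chromosome 3 in WT1121, chr3:91221585-91221644, intergenic on the array: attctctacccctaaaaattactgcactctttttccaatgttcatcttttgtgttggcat
After the rise on chromosome 3 in WT1121, chr3:91249522-91249581, intergenic on the array: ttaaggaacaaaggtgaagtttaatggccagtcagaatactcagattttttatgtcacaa
Before the fall on chromosome 3 in KO1414, chr3:97449213-97449272, in Fmo5: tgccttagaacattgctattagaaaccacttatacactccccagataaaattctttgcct
After the fall on chromosome 3 in KO1414, chr3:97457954-97458013, in Fmo5: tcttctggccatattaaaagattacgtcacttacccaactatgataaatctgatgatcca

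In KO1134, chromosome 3 ran through 4 levels. From chr3:3000029 to chr3:89546211 the mean log2 ratio was -0.31 (probe SD 0.15, 4819 probes), so that the tumour signal differed from the reference by -19.1%. The ratio then rose inside Adar, an RNA-editing enzyme gene with 3 probes at a mean of -0.39 before the step and 1 probe at 0.15 after it. The next 5.26 Mb stood at 0.248 (SD 0.18, 336 probes), 18.7% above the reference. A second rise, within 7.21 kb between probes of Zfp687 and ENSMUST00000128160, opened the highest level, which spanned 3.96 Mb at 0.65 (SD 0.13, 359 probes), 57.2% above the reference. It ended within a gap of 55.4 kb between Hao2, still at 0.69 over 3 probes, and Wars2, at -0.37 over 8 probes. From there to the end of the chromosome the mean was -0.31 (SD 0.15, 3947 probes), the level at which the chromosome began to 2 decimals.

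Chromosome 9 of the same tumour had 3 levels. Its first 9.39 Mb stood at 0.23 (SD 0.13, 607 probes), 17.3% above the reference, up to chr9:12434959. The highest level then spanned 3.78 Mb at 0.62 (SD 0.14, 257 probes), 53.9% above the reference, and began in a gap of 39.6 kb between probes. The nearest gene names on the array on either side were BC038281 (0.32 over 22 probes) and AK089860 (0.58 on 1 probe). Its drop fell in a gap of 41.9 kb beyond the last probe named for Fat3, a giant cadherin gene. The 48 probes named for it all lay before the drop at a mean of 0.58. The probes on either side of the gap carry no gene name, so the end of the gene itself is not placed here. The remaining 108 Mb stood at -0.29 (SD 0.15, 7870 probes), a difference of -18.3% from the reference.

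The levels of the 2 chromosomes resembled each other. On a linear scale the highest level lay 3.05 times as far above the reference as the intermediate level on chromosome 3, and 3.12 times on chromosome 9. Set against the level beyond the drop, which lay below the reference, the highest level was -2.97 times as far away on chromosome 3 and -2.95 times on chromosome 9, and the intermediate level -0.974 and -0.945 times. These ratios hold for arrays centred on the mode. Centred on the autosomal median, the highest, intermediate and last levels read 0.72, 0.32 and -0.24 on chromosome 3. On chromosome 9 they read 0.69, 0.30 and -0.22, so the ratios depend on the centre. In the plot of both chromosomes aligned at the drop, the highest steps overlap, and the intermediate steps lie to their left, 5.26 Mb long on chromosome 3 and 9.39 Mb long, up to the first probe of the chromosome, on chromosome 9.

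**Figure D1:**
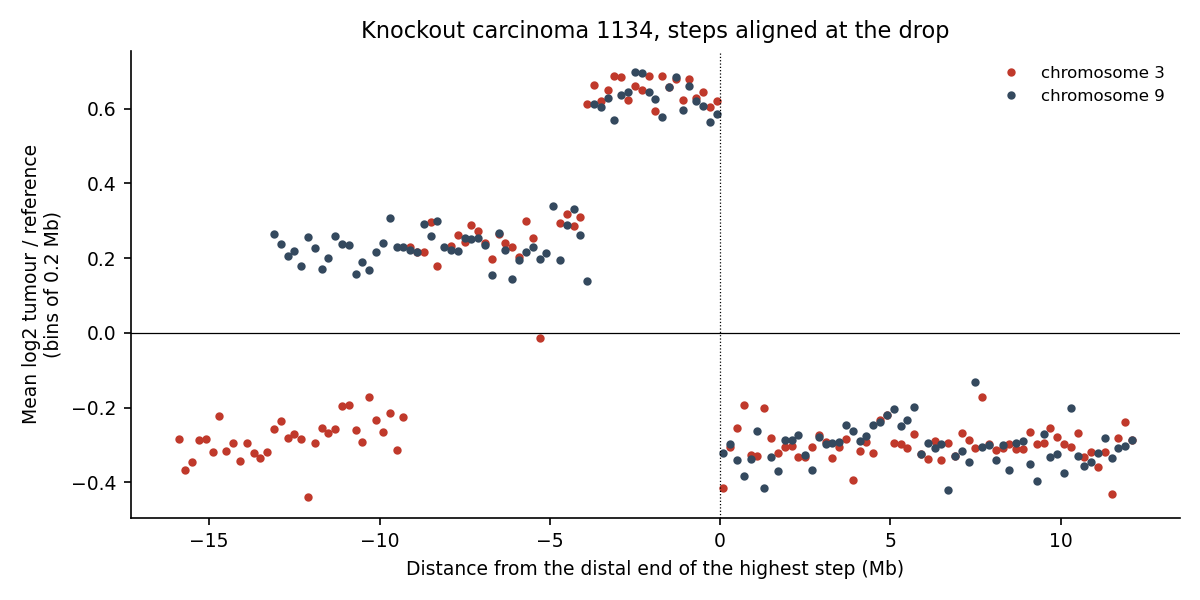
Mean log2 ratio of tumour over reference in bins of 0.2 Mb in knockout carcinoma KO1134, against the distance in Mb from the distal end of the highest step. Points of chromosome 3 (red) and chromosome 9 (dark blue) show highest steps near 0.65 and 0.62, intermediate steps near 0.25 and 0.23, and lost stretches near -0.31 and -0.29.

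Within the highest steps the ratio was flat. Cut into 4 consecutive parts with equal numbers of probes, the step on chromosome 3 read between 0.64 and 0.67 and that on chromosome 9 between 0.59 and 0.64. The 5 probes just inside the chosen window at its start read between 0.24 and 0.74 on chromosome 3, and the 5 just outside it between 0.11 and 0.47. At the distal end they read between 0.40 and 0.73 inside and between -0.54 and -0.25 outside. On chromosome 9, where the window starts before the step and ends 1 probe beyond it, the 5 probes inside the start read between -0.078 and 0.62 and the 5 outside between -0.062 and 0.39. At its end they read between -0.33 and 0.69 inside and between -0.47 and -0.26 outside.

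The excess of each window over the rest of its chromosome does not depend on where an array is centred. For chromosome 3 the excess was 0.94 in KO1134. In the other 11 tumours it ran from -0.016 through a median of 0.013 to 0.072, with a mean of 0.023 ± 0.033 (SD, n = 11). For chromosome 9 it was 0.87 in KO1134 and in the other 11 tumours ran from -0.0043 through a median of 0.019 to 0.047, with a mean of 0.022 ± 0.014 (SD, n = 11). No other tumour overlapped KO1134 in either window. The 3 other carcinomas on its slide read -0.0024 (KO1080), 0.029 (KO1097) and -0.010 (WT1179) on chromosome 3, and 0.011, -0.0043 and 0.017 in that order on chromosome 9. Among lymphomas the highest excess on chromosome 3 was 0.072 in WT1113, with 0.068 in KO1414 and 0.061 in WT1121.

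The excess lay in the tumour's colour. In KO1134 the background-subtracted red signal of the chromosome 3 window exceeded that of the rest of the chromosome by 0.96, against 0.035 to 0.075 in the 3 other carcinomas. The green reference signal of the same window exceeded it by 0.035, against 0.045 to 0.047. On chromosome 9 the red excess was 0.99 against 0.12 to 0.15, and the green excess 0.12 against 0.12 to 0.13. Mean GC content of the probes was 36.9% in the chromosome 3 window and 36.7% outside it, and 36.9% against 36.8% on chromosome 9.

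**Figure D2:**
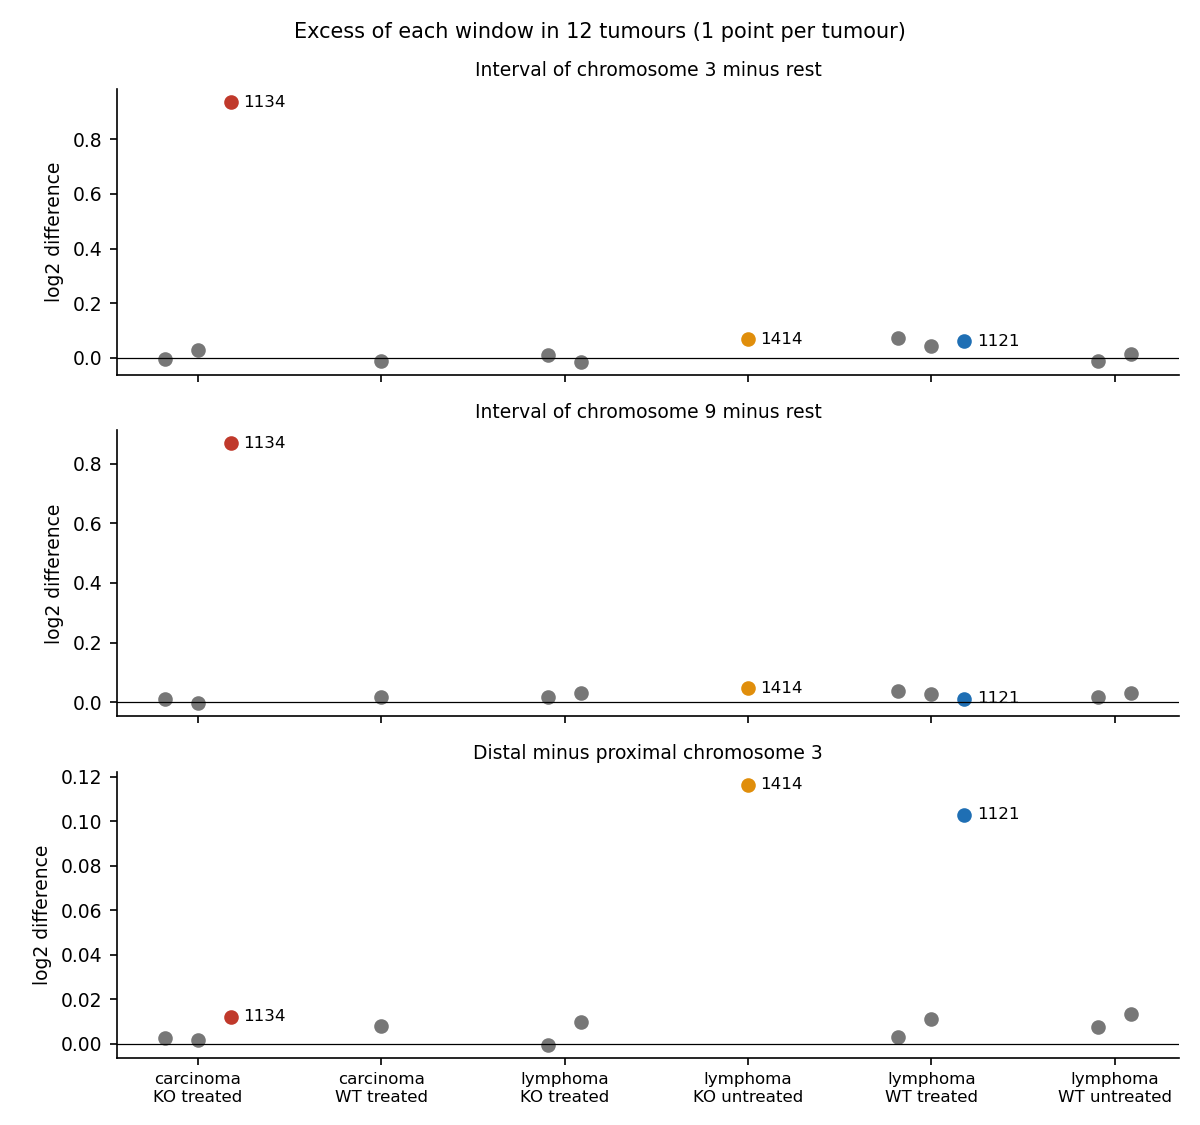
Difference in mean log2 ratio between a window and its comparison on the same array, 1 point per tumour, by tumour type, genotype (KO, knockout; WT, wild type) and treatment. KO1134 stands at 0.94 and 0.87 in the upper panels, and KO1414 (0.12) and WT1121 (0.10) stand above the other 10 tumours in the lowest.

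The windows held few of the array's genes but most of the highest ratios of KO1134. A gene's value is the mean of its probes, and 20281 autosomal genes had values on all arrays. In KO1134, 1.92% of them read 0.25 or more, the threshold used for a gain. Inside the chromosome 3 window 87 of 90 genes did, with a median of 0.68, and inside the chromosome 9 window 36 of 36 did, with a median of 0.64. The median of all autosomal genes was -0.033. Of the 100 highest genes in this tumour 90 lay in the windows. These counts follow from how the windows were chosen. The genes below 0.25 were Fcgr1 (0.10), Zfp687 (0.24) and Ctsk (0.24), each with 1 probe, and Zfp687 lies just before the step. Pi4kb, a lipid kinase gene with 3 probes across the proximal end of the window, read 0.23. With 1 probe a gene's value was loose: on chromosome 3 the SD between genes was 0.17 for the 46 genes with 1 probe and 0.058 for the 28 with 3 or more.

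Of the chromosome 3 genes listed for Notch, Wnt, survival and hypoxia signalling, 4 of 7 were found by name in the window, and they read between 0.67 and 0.76 in KO1134 with a median of 0.69. Notch2, a receptor of the Notch pathway, read 0.69 (probe SD 0.12, 15 probes), while the other 11 tumours ran from -0.020 through 0.030 to 0.31. The highest of these was WT1121, in which all of chromosome 3 was raised. Arnt, the partner that hypoxia-inducible factors need to bind DNA, read 0.67 (SD 0.16, 8 probes), against -0.0021 through 0.045 to 0.39. Here WT1121 (0.39) and KO1414 (0.29) stood above the 9 remaining tumours, whose highest was WT1113 at 0.14. Bcl9, a coactivator of beta-catenin, read 0.76 on 1 probe, with WT1121 at 0.39 and KO1414 at 0.36.

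The list of iron, steroid and metabolic enzyme genes had 11 of 13 members in the window, at 0.48 to 0.72 with a median of 0.64 in KO1134. Hfe2 encodes hemojuvelin, a co-receptor through which iron load raises the hormone hepcidin. It read 0.72 on 1 probe, against -0.10 through 0.21 to 0.35 in the other tumours, a wide spread that left KO1134 highest. Phgdh, which opens serine synthesis, read 0.64 (SD 0.0059, 2 probes). Among the steroid dehydrogenases, Hsd3b2 (0.68), Hsd3b3 (0.48), Hsd3b5 (0.64) and Hsd3b6 (0.60) rested on 1 or 2 probes each, and since the family members are near copies, their separate values are uncertain.

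Chromatin and RNA genes had 6 of 9 members in the window, at 0.62 to 0.75 with a median of 0.69. Setdb1, a histone H3 lysine methyltransferase, read 0.70 (SD 0.046, 4 probes), against -0.11 through -0.029 to 0.42. Chd1l, a chromatin remodeller recruited by poly(ADP-ribose) at DNA damage, read 0.67 (SD 0.076, 6 probes), against -0.11 through -0.013 to 0.35, where WT1121 was highest and KO1414 followed at 0.20. Of the proteases, matrix, transport and junction genes 9 of 10 lay in the window, and 8 of these 9 read 0.25 or more. Pdzk1, a scaffold of transporters in the brush border of the kidney tubule, read 0.75 (SD 0.15, 5 probes), and Vps45, a sorting protein of endosomes, 0.58 (SD 0.14, 6 probes).

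On chromosome 9, strand break repair, mitosis and chromatin genes had 6 of 9 members in the window, at 0.49 to 0.74 with a median of 0.56 in KO1134. Mre11a encodes the nuclease of the complex that senses and trims broken DNA ends. It read 0.61 (SD 0.079, 5 probes), and the other 11 tumours ran only from -0.013 through 0.024 to 0.069, so no tumour came near KO1134. Kdm4d, a histone demethylase, read 0.50 (SD 0.084, 3 probes), against -0.17 through -0.075 to 0.049. Notch and Hippo, adhesion and stress genes had 6 of 8 members in the window, at 0.56 to 0.69. Maml2, a coactivator of Notch, read 0.64 (SD 0.084, 8 probes), against 0.036 through 0.10 to 0.13. Amotl1, which binds the Hippo effector Yap1, read 0.69 (SD 0.071, 6 probes), against -0.068 through -0.023 to 0.096. Sesn3, a stress-induced inhibitor of mTORC1, read 0.59 (SD 0.079, 5 probes).

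Of the metal, receptor and germ line genes 6 of 8 lay in the window, at 0.55 to 0.81. Hephl1, a copper-dependent ferroxidase of the hephaestin family, read 0.70 (SD 0.10, 8 probes), against -0.050 through -0.00092 to 0.075 in the other tumours. The listed genes Chordc1 (-0.36) and Naalad2 (-0.27), lie beyond the drop and were lost with the rest of the chromosome. The other 11 tumours gave list medians between -0.060 and 0.12 for these 3 lists. For the 4 lists on chromosome 3 the medians reached 0.39, in WT1121. Among the listed genes inside the windows, Adam30, Panx1 and Taf1d were not highest in KO1134. Adam30, a metalloprotease gene of the testis, read 0.695 in KO1134, 0.847 in WT1121 and 0.704 in KO1111 (1 probe). Panx1, a membrane channel gene, read 0.56 in KO1134 and 0.72 in WT1405 (3 probes). Taf1d, a gene of the RNA polymerase I machinery, read 0.49 in KO1134 (1 probe). It read higher in WT1114 (0.91), KO1077 (0.77) and KO1111 (0.68), all on slide 2, whose remaining tumour WT1113 read 0.41.

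**Figure D3:**
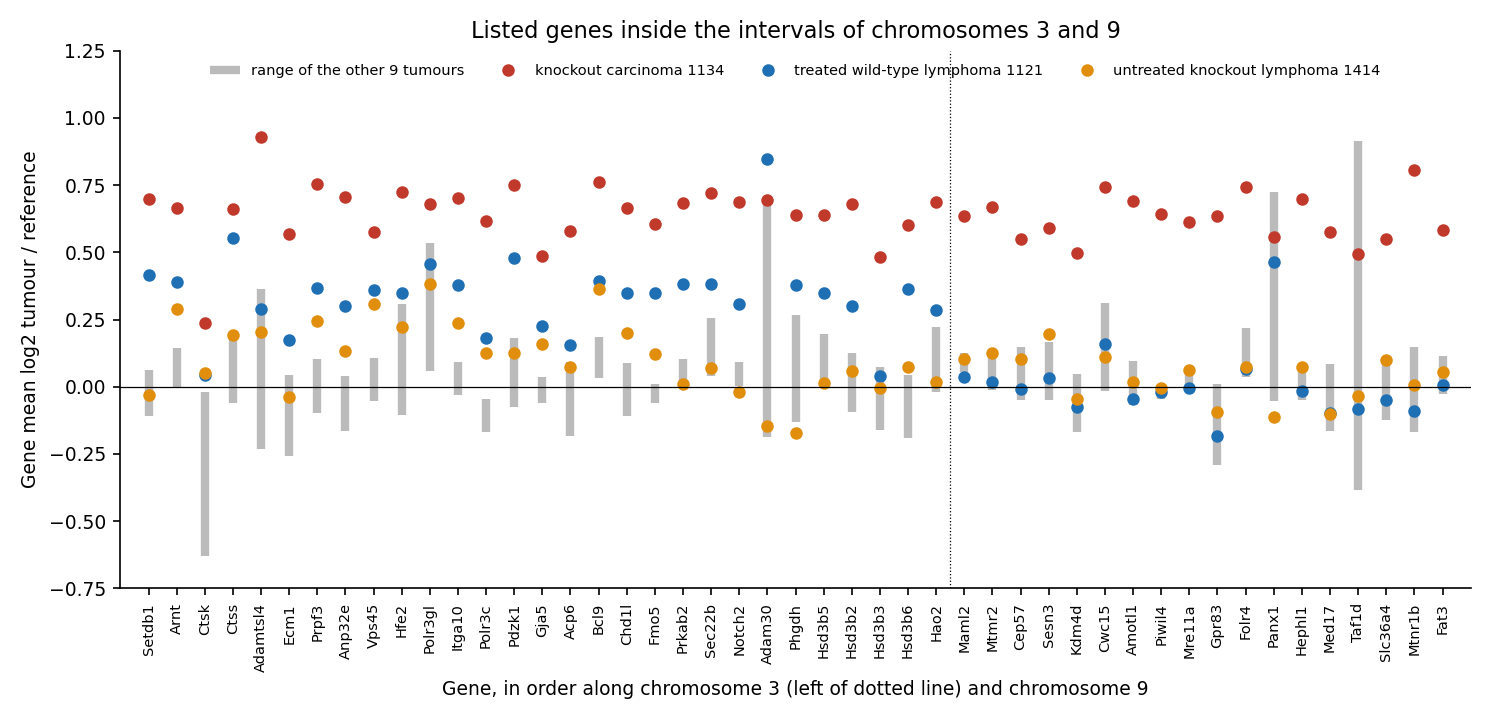
Mean log2 ratio of tumour over reference for 29 listed genes in the chromosome 3 window and 18 in the chromosome 9 window, in order of position. Red, blue and orange points are KO1134, WT1121 and KO1414, and grey bars span the 9 remaining tumours; blue and orange points rise above the bars for Arnt and Bcl9 on chromosome 3 and stay near 0 for Mre11a and Fat3 on chromosome 9.

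The intermediate steps of KO1134 raised further genes by less. On chromosome 9 the step held 47 genes, of which 23 read 0.25 or more, with a median of 0.25. Birc2, an inhibitor of apoptosis, read 0.33 (SD 0.068, 2 probes), its neighbour Birc3 0.29 (SD 0.0037, 2 probes), and Yap1, the effector of the Hippo pathway, 0.36 (SD 0.066, 7 probes). For Yap1 the other 11 tumours ran from 0.025 through 0.084 to 0.12, below KO1134. On chromosome 3 the step held 63 genes, of which 38 read 0.25 or more, and Il6ra, a subunit of the interleukin-6 receptor, read 0.29 (SD 0.088, 4 probes). As whole segments the intermediate steps (0.248 and 0.230) missed the threshold of 0.25. With arrays centred on the autosomal median in place of the mode they read 0.32 and 0.30 and passed, while the lost parts of both chromosomes, at -0.24 and -0.22, then missed it.

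Genes in the lost parts read below the reference in KO1134, where 22.2% of all autosomal genes read -0.25 or less. Of the 25 measured genes of the list for chromosome 9 outside the window, 13 read -0.25 or less and 4 read 0.25 or more, with a median of -0.27, beside 711 of 1202 genes at -0.25 or less and a median of -0.27 over the whole chromosome. The kinases of the DNA damage response Atm (-0.30, SD 0.093, 10 probes), Atr (-0.36, SD 0.12, 9 probes) and Chek1 (-0.29, SD 0.065, 2 probes) lay in the lost part. For Atm the other 11 tumours ran from -0.00031 through 0.046 to 0.14. On proximal chromosome 3, 6 of 10 listed cancer genes read -0.25 or less, beside 322 of 479 genes (67.2%) of that stretch, among them Fbxw7, which targets Notch and cyclin E for destruction, at -0.35 (SD 0.15, 14 probes). KO1134 had a chromosome mean of -0.2 or lower on 6 autosomes, chromosomes 3 and 9 included.

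Distal chromosome 3 stood above proximal chromosome 3 in 2 lymphomas, by different steps, and only in WT1121 did a level pass the threshold for a gain. In WT1121, a treated wild type, the whole chromosome was raised: the mean was 0.23 (SD 0.15, 4941 probes), 17.1% above the reference, up to chr3:91221644, and 0.33 (SD 0.16, 4512 probes), 25.8% above it, from chr3:91249522 to the end. The change fell in a gap of 27.9 kb between probes, with Pglyrp4 and Pglyrp3, genes of peptidoglycan recognition, the nearest names on the array. On a linear scale the distal level lay 1.51 times as far above the reference as the proximal level. The distal part was called gained, and the proximal part missed the threshold.

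In KO1414, an untreated knockout, chromosome 3 stayed at -0.0063 (SD 0.14, 5200 probes) up to chr3:95215241, past the point where WT1121 stepped up. Between both points, over 256 probes, KO1414 read 0.0014 and WT1121 0.31. A level of 0.21 (SD 0.14, 199 probes) then covered 2.23 Mb, chr3:95221048-97449272, from just before Arnt to inside Fmo5, a flavin monooxygenase gene. It lies wholly inside the highest step of KO1134, where that tumour read 0.66 over the same probes, WT1121 read 0.34 and the other 9 tumours between -0.013 and 0.077. The next 1.58 Mb, which holds Notch2, returned to 0.0077 (SD 0.13, 132 probes), and the remaining 60.6 Mb stood at 0.12 (SD 0.15, 3932 probes), 8.36% above the reference. None of these levels reached the threshold of 0.25.

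Distal minus proximal chromosome 3, with the window left out, was 0.12 in KO1414 and 0.10 in WT1121. In the other 6 lymphomas it ran from -0.00034 through 0.0089 to 0.013, with a mean of 0.0075 ± 0.0052 (SD, n = 6), and in the 4 carcinomas from 0.0016 to 0.012. Both tumours share slide 3 with WT1405 (0.0078) and WT1420 (0.013), which did not show it. In the red signal the excess was 0.14 in KO1414 and 0.13 in WT1121 against 0.039 to 0.043 in WT1405 and WT1420, and in the green signal 0.026 and 0.028 against 0.027 to 0.029.

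Of the 18 measured distal genes of lymphoid and growth signalling, 17 read 0.25 or more in WT1121, with a median of 0.37, against 6.47% of all autosomal genes. In KO1414 3 of them did, with a median of 0.17, against 3.56% of all autosomal genes. Both counts stand beside those of the stretch itself, distal chromosome 3 without the window, where 394 of 484 genes (81.4%, median 0.34) read 0.25 or more in WT1121 and 46 of 484 (median 0.12) in KO1414. In KO1134 12 of 18 read -0.25 or less, as did 328 of the 484 genes of the stretch. Nras, a small GTPase of growth signalling, read 0.44 in WT1121, 0.22 in KO1414 and -0.29 in KO1134 on 1 probe, and -0.11 to 0.13 in the other 9 tumours. Lef1, a transcription factor of Wnt signalling in early lymphocytes, read 0.40, 0.16 and -0.34 in that order over 14 probes, and -0.0070 to 0.11 in the others. Bank1, a scaffold of B cell receptor signalling, read 0.36, 0.17 and -0.37 over 27 probes, and -0.078 to 0.090 in the others. In Nras, Lef1 and Bank1 WT1121 was highest, KO1414 second and KO1134 lowest. Other genes of the list did not keep this order. KO1414 read below WT1420 in Cd2 (0.046 against 0.15) and Egf (0.044 against 0.089). It read below WT1114 in Rap1a (0.17 against 0.38) and below KO1080 in Lmo4 (0.120 against 0.125).

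**Figure D4:**
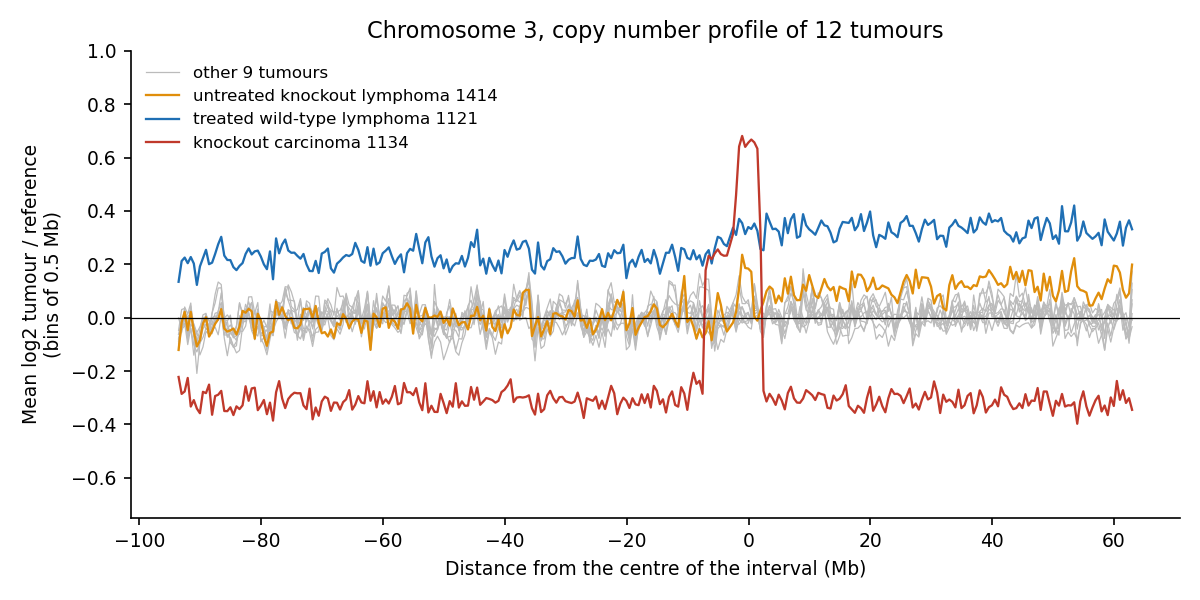
Mean log2 ratio of tumour over reference in bins of 0.5 Mb along chromosome 3, against the distance in Mb from the centre of the window. KO1134 (red) lies near -0.31 outside the steps and peaks near 0.65, WT1121 (blue) steps from 0.23 to 0.33, KO1414 (orange) rises to 0.21 and then 0.12, and the other 9 tumours (grey) stay around 0.

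**Figure D5:**
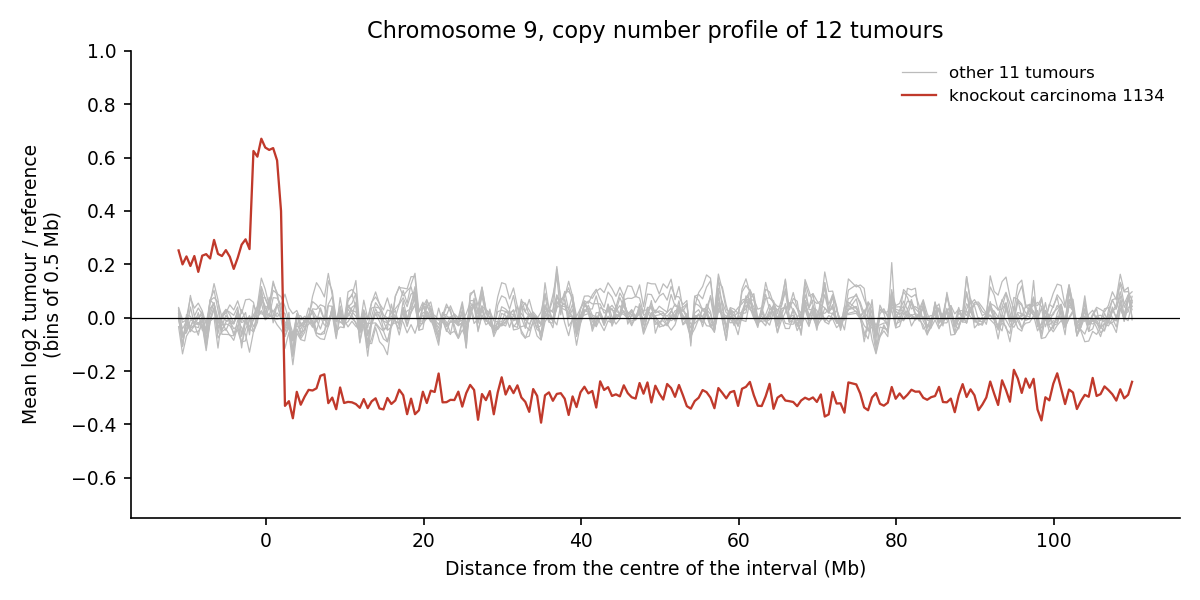
The same along chromosome 9 for KO1134 (red) and the other 11 tumours (grey). KO1134 starts near 0.23, peaks near 0.62 and drops to -0.29, and the other tumours stay around 0 throughout.

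Segments of at least 5 probes whose mean lay 0.25 or more from 0 were called on these chromosomes in 2 of 12 tumours. KO1134 had 7 calls, 2 of them gains, and WT1121 had 1, a gain. WT1113 was divided into shallow segments on both chromosomes, at -0.082 to 0.11, none of which was called. Its profile over 2397 autosomal bins of 1 Mb resembled that of WT1114 on the same slide (Pearson's r = 0.76, a description across bins that share reference and slide). Both tumours were raised on chromosomes 1 (0.20 and 0.24) and 7 (0.25 and 0.19), which enter this r. WT1114 kept 1 level on each of chromosomes 3 (0.025) and 9 (0.041). Across bins of these 2 chromosomes, the correlation with probe GC was 0.31 in WT1113, 0.28 in WT1114 and between -0.18 and 0.29 in the others.

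The mean of each whole chromosome was compared between groups with exact two-sided permutation tests, with Benjamini-Hochberg adjustment over 19 autosomes. Nothing says how the mice of a group relate to each other, so these tests measure only the spread between these tumours. The probes by which the windows and distal chromosome 3 were chosen enter these means, so the p-values are not independent of that choice. Chromosome 3 averaged -0.066 ± 0.12 (SD, n = 4) in carcinomas and 0.070 ± 0.12 (SD, n = 5) in treated lymphomas, a difference of -0.14 (exact permutation p = 0.0317, adjusted p = 0.0823). Chromosome 9 averaged -0.058 ± 0.11 (SD, n = 4) and 0.028 ± 0.019 (SD, n = 5), a difference of -0.086 (exact permutation p = 0.0238, adjusted p = 0.0754). Neither passed adjustment, and both rested on few tumours. Without KO1134 the differences were -0.075 and -0.029, with adjusted p of 0.445 and 0.212 in the exact permutation tests. Without WT1121 they were -0.085 and -0.093, with an adjusted p of 0.0494 each in the exact permutation tests. The treated lymphomas then left all lie on slide 2 and the carcinomas on slide 1, so this comparison cannot tell tumour type from slide.

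Treated lymphomas exceeded the 3 untreated ones by 0.051 on chromosome 3 (exact permutation p = 0.679, adjusted p = 0.912) and by 0.028 on chromosome 9 (exact permutation p = 0.0893, adjusted p = 0.820). On chromosome 3 this was WT1121 alone, since without it the difference was -0.0011. With 56 splits the smallest p this exact permutation test could give was 0.0179, so 1 chromosome alone could not have passed adjustment. Slide 3 is the only slide with both kinds of lymphoma, and there WT1121 differed from the 3 untreated tumours by 0.26 on chromosome 3 and by -0.0036 on chromosome 9. Knockouts differed from wild types within tumour type by -0.050 on chromosome 3 and -0.020 on chromosome 9 (exact permutation adjusted p = 0.969 for both). Within slides 1, 2 and 3 this difference was -0.094, 0.0058 and -0.046 on chromosome 3, and -0.072, -0.015 and -0.00064 on chromosome 9.

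Genes were then compared with limma, in a model with tumour type, genotype and treatment over all 12 tumours and Benjamini-Hochberg adjustment over all autosomal genes. Between tumour types 13.1% of all autosomal genes passed an adjusted p of 0.05. On chromosome 3 67 of 1085 genes did (6.18%), 65 lower and 2 higher in carcinomas, and on chromosome 9 50 of 1202 (4.16%), 45 lower and 5 higher. Both shares lay below that of all genes. Of these genes 37 on chromosome 3 and 38 on chromosome 9 rested on 1 probe. KO1134, which had lost most of both chromosomes, was the lowest carcinoma in 60 of the 65 lower genes on chromosome 3 and in 42 of the 45 on chromosome 9. Without it the fit called 60 lower and 2 higher on chromosome 3, and 31 lower and 15 higher on chromosome 9. The split also moved with the scaling: centring on the autosomal median gave 40 lower and 2 higher on chromosome 3 and 22 lower and 7 higher on chromosome 9, and normexp gave 18 and 3, and 12 and 9. The share of all autosomal genes called in these alternative fits is not reported here. The window on chromosome 9 held none of the genes called in the main fit. That on chromosome 3 held Psmd4, a proteasome subunit gene with 1 probe, given here as values only because the window was chosen on KO1134. It read 0.51 in KO1134, 0.28 in KO1080, 0.25 in KO1097 and 0.0054 in WT1179, which lay below the lymphomas KO1414 (0.092) and WT1121 (0.053).

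The 5 largest differences on these chromosomes, each on 1 probe, were Otol1 (-1.34), Zfp651 (-0.96), Abhd14b (-0.65), AK018041 (-0.61) and A630095E13Rik (0.61). Otol1, on chromosome 3, encodes a collagen-like protein of the inner ear, and read between -1.85 and -1.34 in the carcinomas and between -0.28 and 0.054 in the lymphomas, without overlap. Relative to the running median of neighbouring probes it still read between -1.52 and -1.30 in the carcinomas. Tumour type and slide cannot be told apart here. Among listed genes 2 passed. Rap1a, a small GTPase of lymphocyte adhesion on distal chromosome 3, was lower in carcinomas by -0.37 (SE 0.080, 8 probes, limma adjusted p = 0.00623), although WT1179 (0.099) overlapped the untreated WT1405 (0.0028) and WT1420 (0.031). KO1134 read -0.30 and the other carcinomas averaged -0.0028. Lymphomas read 0.22 to 0.38 on slide 2 and 0.0028 to 0.38 on slide 3. Rhoa, a GTPase of the cytoskeleton on chromosome 9, was lower by -0.35 (SE 0.079, 4 probes, limma adjusted p = 0.00772), with KO1414 at -0.011 among the carcinomas' values. For Rhoa, KO1134 read -0.25 and the other carcinomas averaged 0.037. Lymphomas read 0.32 to 0.45 on slide 2 and -0.011 to 0.21 on slide 3.

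By genotype 0.0641% of all autosomal genes passed in limma, and on chromosomes 3 and 9 none did. There 16 genes (1.47%) and 20 genes (1.66%) had an unadjusted p under 0.05, below the 5.14% of all autosomal genes. By treatment 0% of autosomal genes passed. On chromosome 3 97 genes (8.94%) had an unadjusted p under 0.05 and on chromosome 9 73 (6.07%), against 9.79% of all autosomal genes. Without WT1121 the limma fit called 4 genes by treatment on chromosome 3 and 17 on chromosome 9. In that fit the treated lymphomas all lie on slide 2 and the untreated ones on slide 3, so treatment and slide cannot be told apart. The share of all autosomal genes in that fit is not reported here, so these counts cannot be read as particular to these chromosomes. On simulated data with a difference of log2 0.4 between treatments, the same fit over 20281 genes recovered 52.5% of the changed genes.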

How the data were processed

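Per the file headers, the deposited intensities were written by Agilent Feature Extraction 10.7.1.1 as processed signals, background-subtracted, detrended and dye-normalized by the linear method, on mm9 coordinates; per the file headers, the LogRatio column is log10 of red over green. The authors' deposited series table holds log2 ratios that matched log2 of these processed signals in direction and scale, uncentred, with column medians between -0.02 and 0.025 and r of at least 0.99994 on each array. Spots marked as outliers were left out, spots of a probe were averaged, and arrays were centred on the mode of running medians of 25 autosomal probes. For the colours taken on their own, background was subtracted from mean signals. Segments came from penalised least squares (penalty 10 times log probe number times noise variance), and neighbouring levels closer than 0.05 were joined. The segmentation and the gene model were tested on simulated data. Gene values were fitted with limma 3.58.1 in R 4.3.3, other steps with Python 3.11.15, numpy 2.4.6 and pandas 2.3.3. Of 2287 gene names on the 2 chromosomes, 1655 matched symbols or older symbols in the RefSeq table (GRCm38) or gene name table, from which no coordinates were taken; 1461 autosomal probes whose gene name lies on several chromosomes entered no gene value. Named genes were the members of 10 lists (106 of 125 listed genes matched by name), the genes next to ends of segments, and the 5 largest called differences per comparison; Fcgr1, Psmd4, Pi4kb and the genes under Other observations were named after their values were seen. Some listed genes are counted but not reported here by name. The windows, members and lists were chosen with earlier results of these data known. Precision of the group comparisons is limited by how many arrays there are. Alternatives covered centring, signal column, normexp background correction (offset 50), GC, outliers, segmentation settings, slide as a random block, and leaving out each tumour.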

Additional observations from a re-analysis of the deposited data

Results flagged for a closer look

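A tumour that stood far from the rest of its group was looked for in 15 combinations of measure and group, of which chance flags about 1 in 20. Among the 4 carcinomas KO1134 stood apart in the mean of chromosome 3 (-0.25), the mean of chromosome 9 (-0.23), the excess of the chromosome 3 window (0.94) and that of the chromosome 9 window (0.87). WT1121 stood apart in the mean of chromosome 3 (0.28) among all 8 lymphomas and among the 5 treated ones, and among the treated ones in distal minus proximal chromosome 3 (0.10). The windows were chosen for these values, so the flags repeat the choice. The effect of genotype differed between tumour types by -0.061 on chromosome 3 and -0.074 on chromosome 9 (exact permutation p = 0.540 and 0.643), which met no rule.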

How the results depend on the processing

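The excess of the chromosome 3 window in KO1134 was 1.09 with normexp and 0.89 with each probe's median over arrays subtracted. That of chromosome 9 was 1.01, 0.82 and, from medians of probes, 0.92. The distal excess was 0.13 and 0.087 in WT1121 and 0.15 and 0.10 in KO1414 under normexp and probe medians. Called segments numbered 8, and 5 with median centring, 13 at a threshold of 0.15, 2 at 0.4 and 20 at a penalty of 5. Genes called by tumour type numbered 67 on chromosome 3 and 50 on chromosome 9, and in that order 111 and 106 with slide as a random block (correlation within slides -0.070), 42 and 29 with median centring, 21 and 21 with normexp, 30 and 13 with at least 2 probes. Leaving out each tumour gave 29 to 64 and 16 to 78, with the fewest without KO1111 on chromosome 3 and without KO1077 on chromosome 9. Fewer than 67 divided by 1.5 also remained without KO1077 (37) and WT1114 (40) on chromosome 3; on chromosome 9 counts were 21 without KO1111, 27 without WT1113, 23 without WT1114 and 78 without WT1121. By treatment the slide block called 2 and 1 genes, and leaving out tumours 0 to 4 and 0 to 17. The most came without WT1121, where treatment and slide cannot be told apart. By genotype no alternative called a gene there. KO1077, KO1111, WT1113 and WT1114, named above for low counts by tumour type, share slide 2. The shares of all autosomal genes called under these alternatives are not reported here. A change in the counts may therefore follow a change over all genes. Leaving out each tumour moved the chromosome means by tumour type between -0.16 and -0.075 (chromosome 3) and between -0.11 and -0.029 (chromosome 9), with normexp at -0.082 and -0.023 (exact permutation adjusted p = 0.929 for both). By treatment they ran from -0.0011 to 0.067 and from 0.023 to 0.035, by genotype from -0.062 to -0.014 and from -0.028 to 0.0020; the genotype difference on chromosome 9 was 0.0020 without KO1134 and 0.0014 without WT1179. The cause was not tested. No paired analysis was possible because tumours carry animal numbers that no 2 groups share. The noise of the arrays (0.115 to 0.171) limits what single probes show, and 1 tumour per pattern leaves no replicate.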

Other observations

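KO1134 had 1 further called gain, at chr14:69876584-70090608, with a mean of 0.61 over 23 probes, close to the levels of the windows on chromosomes 3 and 9. Entpd4, a nucleotide phosphatase of the Golgi, read 0.66 there and Loxl2, a cross-linker of collagen, 0.59. The other 11 tumours ran from 0.055 to 0.94 over the same probes, so this gain, unlike the windows above, was not set apart in KO1134.

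Single probes departed from their neighbours in whole sets of arrays. On chromosomes 3 and 9, 5 and 2 probes read at least 1 (log2) below the running median of 51 probes in all 4 carcinomas and in no lymphoma, which is 0.0528% and 0.0229%, against 41 of 161460 autosomal probes (0.0254%). They include the probes of Otol1, Sycp1 and Ak5 on chromosome 3 and of Ncam1 and Slc25a20 on chromosome 9. A further 9 and 12 probes read at least 1 above it on 2 or more arrays of slide 3 and on no other slide (0.0951% and 0.137%, against 0.103% of autosomal probes), among them those of Arid3b, Map2k1 and Tgfbr2. For the probe in Tgfbr2 the 3 wild-type lymphomas of slide 3 read 0.95 to 1.19 above their neighbours, while KO1414 on the same slide read -0.17. On slide 2 the same probe read 0.40 and 0.49 in the knockouts KO1077 and KO1111, and 0.54 in the wild types WT1113 and WT1114. Slide and animal cannot be told apart for these probes. Nor can genotype and animal on slide 3, where KO1414 is the only knockout. The cause was not tested.

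Over 279 bins of 1 Mb on chromosomes 3 and 9, the profiles of KO1414 and WT1121, on the same slide and against the same reference, had a Pearson's r of 0.59, a description across bins. Both tumours were singled out for a higher distal chromosome 3, which these bins include, so a positive r follows at least in part from that choice.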
